A study of Bos taurus with 20 samples.

Results

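Intermediate filament genes measured here were VIM, KRT8, KRT18, and KRT19, and lamin genes were LMNA, LMNB1, and LMNB2. They were taken from a bovine microarray as all non-control probes whose gene name, without its transcript suffix, was 1 of these 7 symbols. These 7 genes, of 22550 genes or transcripts on the array, were read by 14 probe sequences on 16 spots, since each sequence of LMNA was printed on 2 spots, of 61325 non-control spots in all. Oocytes (OO) and 3 somatic cell types, theca (TH, scraped from the follicle wall), granulosa (GC), and cumulus (CC), all labelled immature, came from antral follicles of 3 to 6 mm in bovine ovaries collected after slaughter. The last of the 5 groups was CC detached from the oocyte after 4 h of in vitro maturation (CC IVM). Each group had 4 arrays, described by the study as biological replicates for the 4 cell types, and 1 sample was hybridized to each array with the dye Cy3, starting from 200 ng of RNA. The sources used here do not give how many animals or follicles were pooled for an array.

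Intermediate filaments are the rope-like part of the cytoskeleton that resists mechanical strain. Vimentin, encoded by VIM, is the filament protein typical of mesenchymal cells, and keratins, typical of epithelia, assemble only as pairs of a type II chain (KRT8) and a type I chain (KRT18 or KRT19). Lamins form the meshwork under the inner nuclear membrane: LMNA gives lamin A and lamin C by alternative splicing, while LMNB1 and LMNB2 each give a B-type lamin, and granulosa and cumulus cells are epithelial-like cells known to hold vimentin together with KRT8 and KRT18.

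The probes are shown first because those of the same gene did not always give the same result. On the UMD_3.1 assembly the files place VIM at chr13:31945012-31952941, KRT18 at chr5:27171925-27175575, KRT8 at chr5:27213750-27221177, KRT19 at chr19:42366660-42370493, LMNA at chr3:14696144-14715262, LMNB2 at chr7:22428167-22445813, and LMNB1 at chr7:28414756-28465352. These are the bounds of the annotated transcripts and not of the probes, so whether a probe is exonic is not stated by the files. KRT18 and KRT8, the partner chains of one keratin pair, lie on the same chromosome with 38175 bases between them. Both probes of KRT8 share 46 of their 60 bases, and both probes of KRT18 share 55 of 60, so each pair is nearly 1 measurement repeated. The probes of the other genes share runs of 4 to 7 bases and read different stretches. Of these, the probes that read like protein-coding sequence are given, and results of KRT19 and LMNA below turn in part on theirs. Capitals mark only a run of histidine codons in LMNA probe 2, which lies before the point where lamin A and lamin C part in the known protein. LMNA probe 1 reads in the tail that lamin A has and lamin C lacks. These placements rest on the known lamin tails and were not checked against a transcript sequence.
LMNA probe 1: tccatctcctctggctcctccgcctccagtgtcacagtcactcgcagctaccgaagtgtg
LMNA probe 2: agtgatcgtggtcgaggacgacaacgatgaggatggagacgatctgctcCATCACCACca
KRT19 probe 2: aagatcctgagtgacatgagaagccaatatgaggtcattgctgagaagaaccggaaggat
LMNB1 probe 2: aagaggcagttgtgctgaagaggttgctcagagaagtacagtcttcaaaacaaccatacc
LMNB2 probe 1: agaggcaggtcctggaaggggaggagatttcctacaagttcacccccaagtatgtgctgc

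The processed intensity of a spot was taken on the log2 scale and set relative to the 75th percentile of its array, so that 0 is the level of that percentile, and a gene value is the median over its spots. Differences are on the same log2 scale, with a standard error (SE) from limma, and passed the test where the Benjamini–Hochberg adjusted p over all genes was under 0.05. Levels are compared between groups for 1 gene or probe at a time and never between probes. Marker genes followed the labels. Summed levels add the markers on the linear scale before log2 is taken, so the brightest marker weighs most. The summed level of 5 theca markers was 9.17 to 9.70 in TH and at most 6.84 elsewhere, that of 6 oocyte markers was 7.95 to 8.37 in OO and at most 1.59 elsewhere, and that of 4 granulosa and cumulus markers was 6.79 to 9.59 in GC, CC, and CC IVM, 4.18 to 5.06 in TH, and 1.14 to 1.60 in OO. Between 49.3 and 68.8% of the spots of an array were well above background, with the lowest share on OO replicate 2, and no spot was saturated (0 on each array). By the file headers, slide 1 held replicates 1 and 2 of TH, GC, CC, and OO, slide 2 held their replicates 3 and 4, and slide 3 held all 4 CC IVM arrays. Fewer cells of a type in a sample and less RNA of a gene per cell cannot be told apart in these data.

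**Figure D1:**
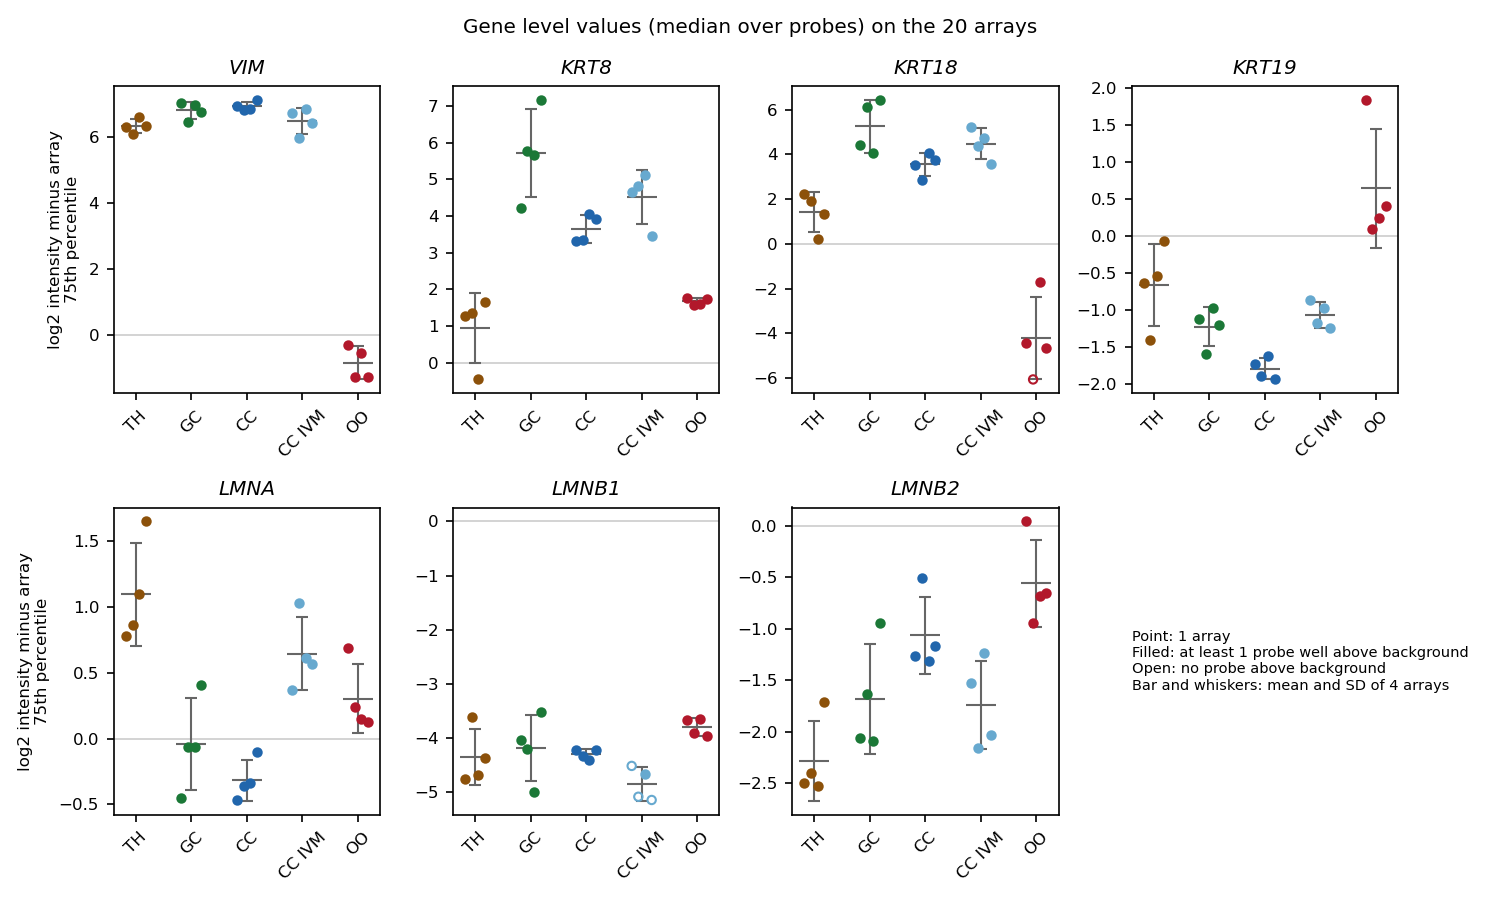
Gene level values of the 7 genes (y axis, log2 intensity minus the 75th percentile of the array) in the 5 groups (x axis). Points are single arrays, open where no probe was above background, and the bar with whiskers is the mean and SD of 4 arrays. VIM and KRT18 lie far lower in OO than in any somatic group, KRT8 is highest in GC, and LMNB1 spans a narrow, dim range.

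Over TH, GC, CC, and OO, the limma F-test called 6 of the 7 genes, all but LMNB1 (adjusted p = 0.28), where it called 71.3% of all genes. Against the mean of the 3 somatic cell types, OO had 2 genes that rose (KRT19 and LMNB2), 3 that fell (VIM, KRT8, and KRT18), and 2 that did not pass (LMNA and LMNB1). The 5 of 7 called stand beside 71.3% of all genes (32.9% higher and 38.3% lower), so the share is close to the background. The median difference of the 7 genes was 0.06, beside -0.52 over all genes and 0.19 over those 10012 that were above background throughout the 16 arrays.

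VIM differed little among the somatic cells and was far lower in OO. It was at 6.29, 6.08, 6.59, and 6.33 on TH replicates 1 to 4, at 7.02, 6.45, 6.97, and 6.76 in GC, at 6.92, 6.81, 6.85, and 7.11 in CC, and at 6.73, 5.96, 6.83, and 6.40 in CC IVM. In OO the values were -0.30, -1.28, -0.55, and -1.28, all well above background. The OO arrays thus lay below every somatic array, while the somatic groups were within 1 log2 unit of each other by their means (6.32 to 6.92). VIM in OO fell by 7.54 on the log2 scale against the somatic mean (SE 0.18, adjusted p = 1.5e-14), which is 186-fold. Its probes gave -7.65 (SE 0.19) and -7.43. The difference between TH and CC, -0.60 (SE 0.22), had an adjusted p of 0.052 and passed with 9 of 15 other settings (leaving out arrays not counted), such as quantile normalization (-0.68, adjusted p = 0.01).

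KRT8 and KRT18, the type II and type I chains that pair in simple epithelia, had their highest means in GC. KRT8 was at 4.23, 5.79, 5.68, and 7.17 on GC replicates 1 to 4, at 3.31, 3.34, 4.05, and 3.92 in CC, at 1.26, 1.35, -0.46, and 1.66 in TH, and at 1.77, 1.58, 1.61, and 1.73 in OO. GC arrays did not overlap with those of the other 3 cell types, and the OO arrays, which were the most alike (SD 0.09), lay among or just above the TH arrays. KRT8 was lower in TH than in GC by a log2 difference of -4.76 (SE 0.52, adjusted p = 5.4e-06), and lower in TH than in CC by -2.70 (adjusted p = 0.00074). GC exceeded CC by 2.06 (SE 0.52, adjusted p = 0.019), which did not pass within slide 1 (1.68, adjusted p = 0.21) or slide 2 (2.44, adjusted p = 0.20), nor without CC replicate 1 (1.95, adjusted p = 0.058) or 2 (adjusted p = 0.060). Between OO and TH the difference of KRT8 was 0.72 (SE 0.52, adjusted p = 0.23), so the order was GC, CC, and then TH and OO, which did not differ beyond their spread by this fit, although with the deposited value table OO exceeded TH by 1.25 (adjusted p = 0.026).

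KRT18 followed the same order among somatic cells but not in OO. On GC replicates 1 to 4 it was at 4.41, 6.11, 4.08, and 6.42, in CC at 3.54, 2.85, 4.06, and 3.77, and in TH at 2.23, 1.92, 0.20, and 1.35. In OO it was at -4.42, -6.06, -1.70, and -4.66, with replicate 2 not above background. Every OO array was lower than every TH array, and the OO arrays were spread widely (SD 1.82). KRT18 in OO fell by 7.62 on the log2 scale against the somatic mean (SE 0.63, adjusted p = 2.1e-08), and KRT8 fell by 1.77 (SE 0.42, adjusted p = 0.0015). The difference between TH and GC in KRT18 was -3.83 (SE 0.77, adjusted p = 0.0016). That between TH and CC, -2.13 (adjusted p = 0.048), passed in 9 of 15 other settings and in 5 of 16 fits that each left out 1 array. It was lost within slide 1 (-1.12, adjusted p = 0.43) and slide 2 (-3.14, adjusted p = 0.10) and without TH replicate 3 (-1.72, adjusted p = 0.15), and GC and CC differed by 1.70 (SE 0.77, adjusted p = 0.22).

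Markers of other follicular cells moved with the spread of these keratins in part. TH replicate 3, the lowest TH array for both keratins, also had the lowest summed level of granulosa and cumulus markers in TH (4.18, with 3 of the 4 markers above background). This sum was mostly INHBA, lowest on TH replicate 3 at 3.67. FSHR was lowest on TH replicate 1 (-3.94), and AMH (2.38) and CYP19A1 (-6.25) on TH replicate 2. GC replicate 4, the highest for both, had the highest sum of those markers in GC (8.82), but its FSHR (2.15) was below that on GC replicates 1 (2.47) and 3 (2.39). GC replicate 1, with the next highest sum (7.70), had the lowest KRT8 in GC (4.23). GC replicate 2, at 6.11 in KRT18, had the lowest sum (6.79) and the highest sum of theca markers in GC (6.84). On OO arrays 2 or 3 of the 4 granulosa and cumulus markers were above background, the summed level lay between 1.14 and 1.60, and CYP19A1 was not above background on any. The part of these cells in the keratin values was not tested.

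KRT19 is a type I keratin that can pair with KRT8, and its 2 probes gave opposite results in OO. Probe 1, which ends in a polyadenylation signal, was at 5.21, 4.63, 5.45, and 3.45 in TH, 5.0, 3.98, 5.03, and 4.51 in GC, 3.88, 3.51, 4.16, and 3.50 in CC, and 3.33, 2.91, 3.01, and 3.18 in OO. All OO arrays were below all somatic arrays, by a log2 difference of -1.25 (SE 0.30, adjusted p = 0.0018, and 0.07 within slide 2 at -1.26). Probe 2, whose coding-type sequence is given above, was not above background on any GC, CC, or CC IVM array and on 1 of 4 TH arrays (replicate 4, -3.60), but was above it on all OO arrays, at 0.36, -2.72, -2.53, and -2.36. On probe 2, OO was at least 9.32-fold higher than GC and at least 12.1-fold higher than CC, the dim groups being set at the lowest signal called above background on each array, with adjusted p = 1.2e-05 and 6.7e-06 in the fit. Without OO replicate 1, the highest of them, these limits were 5.64- and 7.34-fold. With the same floor, the gap between the probes within an array differed between OO and the 12 somatic arrays by at least 4.55 log2 units, and by at least 3.90 without OO replicate 1.

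The gene value of KRT19 is the midpoint of these probes, and its rise in OO, 1.88 (SE 0.28, adjusted p = 1.9e-05), holds the sign of probe 2 only. Taken from the brightest probe the same difference was -1.25 (adjusted p = 0.0016), and after normexp background correction it was 0.20 (adjusted p = 0.45). Against TH it was 1.31 (adjusted p = 0.0033) for the gene and -1.58 for probe 1 (adjusted p = 0.0015). Of 3 epithelial markers on the array (EPCAM, KRT7, and KRT5), all 3 were above background on each OO array, with a summed level of 2.78 to 3.01, against -0.38 to 0.45 in TH and at most -3.59 in GC and CC, and their part in the KRT19 values was not tested.

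LMNA, too, had probes of opposite sign in OO against the somatic mean, but not against TH alone. OO minus TH was -1.02 for its probe 1 (adjusted p = 0.0015) and -0.57 for its probe 2 (adjusted p = 0.20). Its gene value was at 0.78, 0.86, 1.10, and 1.65 in TH, -0.45, -0.06, -0.06, and 0.41 in GC, -0.47, -0.36, -0.34, and -0.10 in CC, and 0.69, 0.24, 0.15, and 0.13 in OO. TH arrays were above all others of these 16 arrays, by 1.14 over GC (SE 0.22, adjusted p = 0.0012, and 0.064 within slide 1 at 1.08) and 1.42 over CC (adjusted p = 0.00012), and OO did not differ from the somatic mean by the test (0.06, SE 0.18, adjusted p = 0.78). With the deposited value table this last difference was 0.58 (adjusted p = 0.0058).

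Probe 2 of LMNA, in the part common to lamin A and lamin C, held nearly all of the difference between somatic groups. It was at 1.49, 1.57, 1.81, and 2.90 in TH, -0.90, -0.21, -0.11, and 0.92 in GC, -1.28, -0.60, -0.82, and -0.36 in CC, and 1.32, 1.72, 1.27, and 1.19 in OO. TH and OO overlapped and lay above all GC and CC arrays. TH exceeded GC by 2.02 (SE 0.37, adjusted p = 0.00088) and CC by 2.71 (adjusted p = 4.4e-05), and OO exceeded the somatic mean by 1.01 (SE 0.30, adjusted p = 0.0085), which was 0.51 within slide 2 (adjusted p = 0.28). Probe 1, in the tail particular to lamin A, was between -0.20 and 0.38 on all 12 somatic arrays, with a difference of 0.22 between TH and GC (SE 0.24, adjusted p = 0.61). In OO it was at 0.06, -1.25, -1.06, and -0.97, so that replicate 1 lay among the somatic arrays and the other 3 well below them, and the difference from the somatic mean was -0.91 (SE 0.19, adjusted p = 0.00066). Within slide 1, which holds OO replicates 1 and 2, it was -0.67 (adjusted p = 0.21), and with the deposited values it was -0.31 (adjusted p = 0.077). Here the gap between the probes differed between OO and the somatic arrays by 1.92 (exact permutation test, two-sided, p = 0.017, adjusted p = 0.045 over 8 tests), but the adjusted p was 0.057 after quantile normalization, 0.13 without OO replicate 2, and 0.053 to 0.057 without single GC or CC arrays. That test pooled TH, GC, and CC, and the gaps on TH arrays overlapped with those on OO arrays. TH arrays, high in probe 2, also had 2 or 3 of the 3 endothelial markers above background, with a summed level of 0.43 to 2.13, highest on TH replicate 4. That sum was -5.63 to -3.15 in GC and CC, -1.23 to 1.01 in OO, and -4.34 to -3.12 in CC IVM. In OO the sum was almost all VWF, at a mean of -0.59 and above background on 4 arrays. PECAM1 (mean -7.53) was above background on 1 OO array and CDH5 (mean -8.05) on 0. Probe 2 was also high in OO and, as given below, in CC IVM. The part of endothelial cells was not tested.

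**Figure D2:**
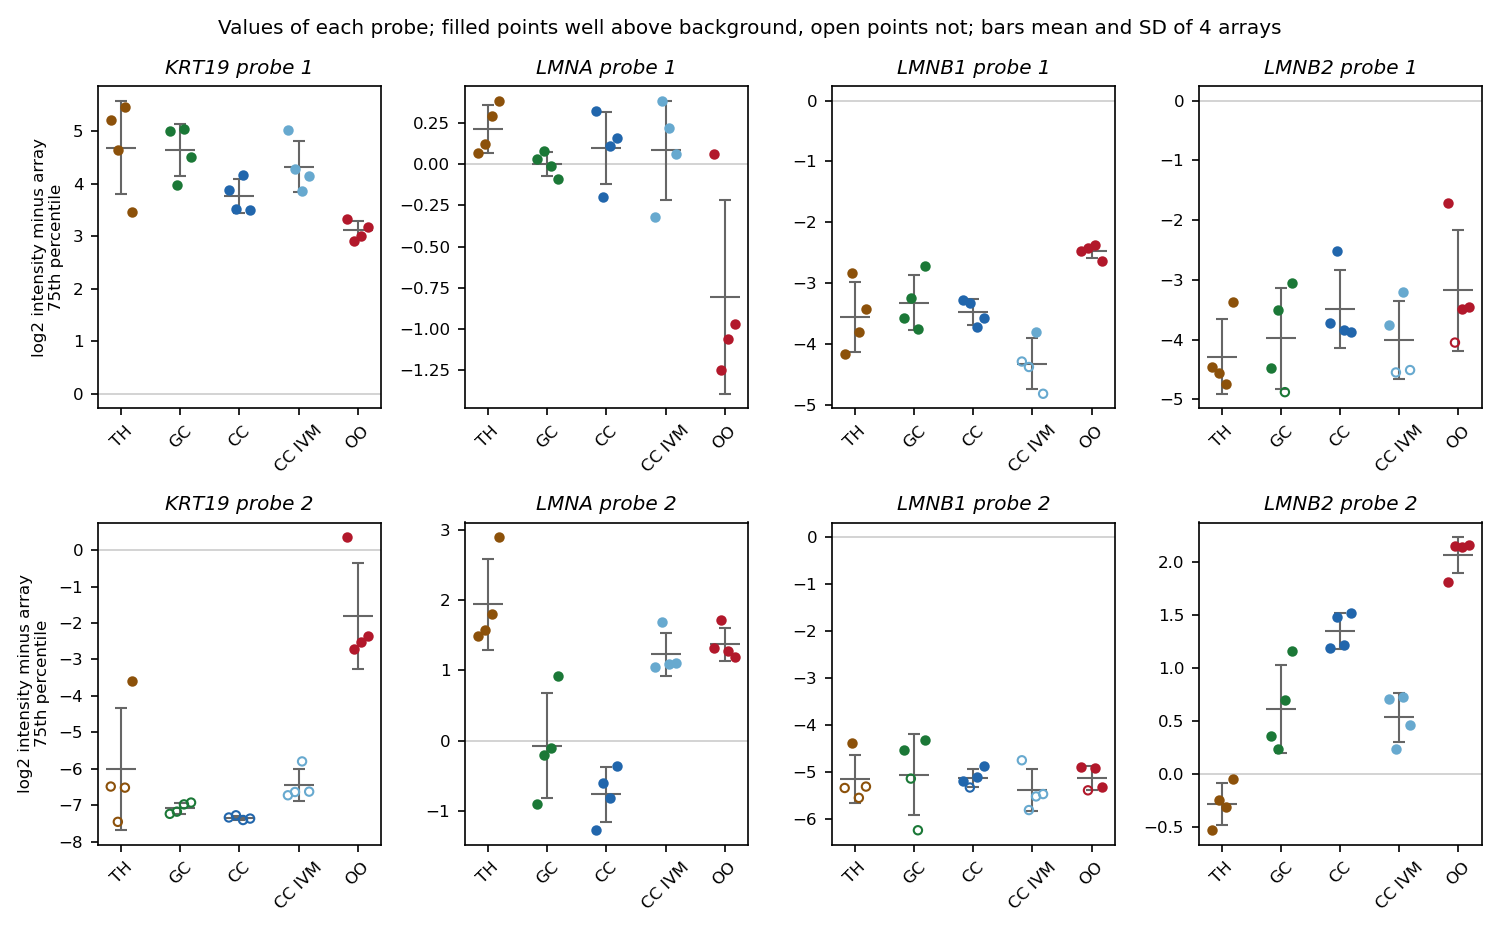
Values of both probes of KRT19, LMNA, LMNB1, and LMNB2 (y axis, log2 intensity minus the 75th percentile of the array) in the 5 groups (x axis). Points are arrays, open where the probe was not well above background, with mean and SD. KRT19 probe 2 is open in all of GC, CC, and CC IVM and filled in OO, and LMNA probe 1 is flat over somatic groups while probe 2 is not.

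Of the B-type lamins, LMNB1 was near background. Its gene values were at -4.76, -3.61, -4.68, and -4.37 in TH, -4.05, -4.20, -5.00, and -3.52 in GC, -4.23, -4.33, -4.41, and -4.23 in CC, and -3.68, -3.91, -3.65, and -3.97 in OO, with overlap between OO and both TH and GC. The gene difference in OO was 0.48 (SE 0.23, adjusted p = 0.075). After normexp background correction it turned to -0.46 (adjusted p = 0.0017). LMNB1 probe 1 was above background on all arrays of the 4 cell types, and its OO values of -2.47, -2.43, -2.38, and -2.63 were above every somatic array (0.97, SE 0.22, adjusted p = 0.0012), falling to 0.07 after normexp. Probe 2 was above background on 1 of 4 TH, 2 GC, 3 CC, and 3 OO arrays and gave -0.02 (SE 0.29, adjusted p = 0.96).

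LMNB2 was highest in OO and next in CC. Gene values were 0.04, -0.95, -0.68, and -0.65 in OO, -1.27, -0.51, -1.31, and -1.17 in CC, -2.06, -1.63, -2.09, and -0.95 in GC, and -2.50, -2.40, -2.53, and -1.71 in TH. OO overlapped with CC and touched the highest GC array. It exceeded the somatic mean by 1.12 (SE 0.24, adjusted p = 0.00066) and TH minus CC was -1.22 (adjusted p = 0.0047; -1.56 with 0.064 and -0.88 with 0.24 within slides 1 and 2), while OO and CC differed by 0.51 (SE 0.30, adjusted p = 0.15). On the brighter probe 2 the groups stood apart, with OO at 1.81 to 2.16, CC at 1.19 to 1.52, GC at 0.24 to 1.16, and TH at -0.53 to -0.05. Each step of that probe passed the test, by 0.71 from CC to OO (adjusted p = 0.0066), by -0.74 for GC minus CC (adjusted p = 0.036), and by -0.90 for TH minus GC (SE 0.20, adjusted p = 0.004). The step from CC to OO was lost within slide 1 (0.64, adjusted p = 0.11). That between GC and CC was lost within each slide (-1.03, adjusted p = 0.20 and -0.44, adjusted p = 0.57) and without single arrays such as GC replicate 2 (-0.61, adjusted p = 0.11), and that between TH and GC within slide 1 (-0.69, adjusted p = 0.24) and slide 2 (-1.12, adjusted p = 0.052).

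Between pairs of cell types, the test called 3 of the 7 genes for TH against GC (26.3% of all genes), 5 for TH against CC (31.8%), 1 for GC against CC (9.88%), and 5 each for OO against TH (64.6%), GC (68.6%), and CC (63.7%). The comparisons with OO share its arrays. By probe sequence, 12 of 14 were called for OO against the somatic mean, 4 higher and 8 lower, where 64.4% of all probe sequences were called. Those lower include both probes of KRT8 and both of KRT18, each pair nearly 1 measurement repeated, so this count is not one of separate results. The 2 not called were LMNB1 probe 2 and LMNB2 probe 1 (0.74, SE 0.43, adjusted p = 0.13).

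**Figure D3:**
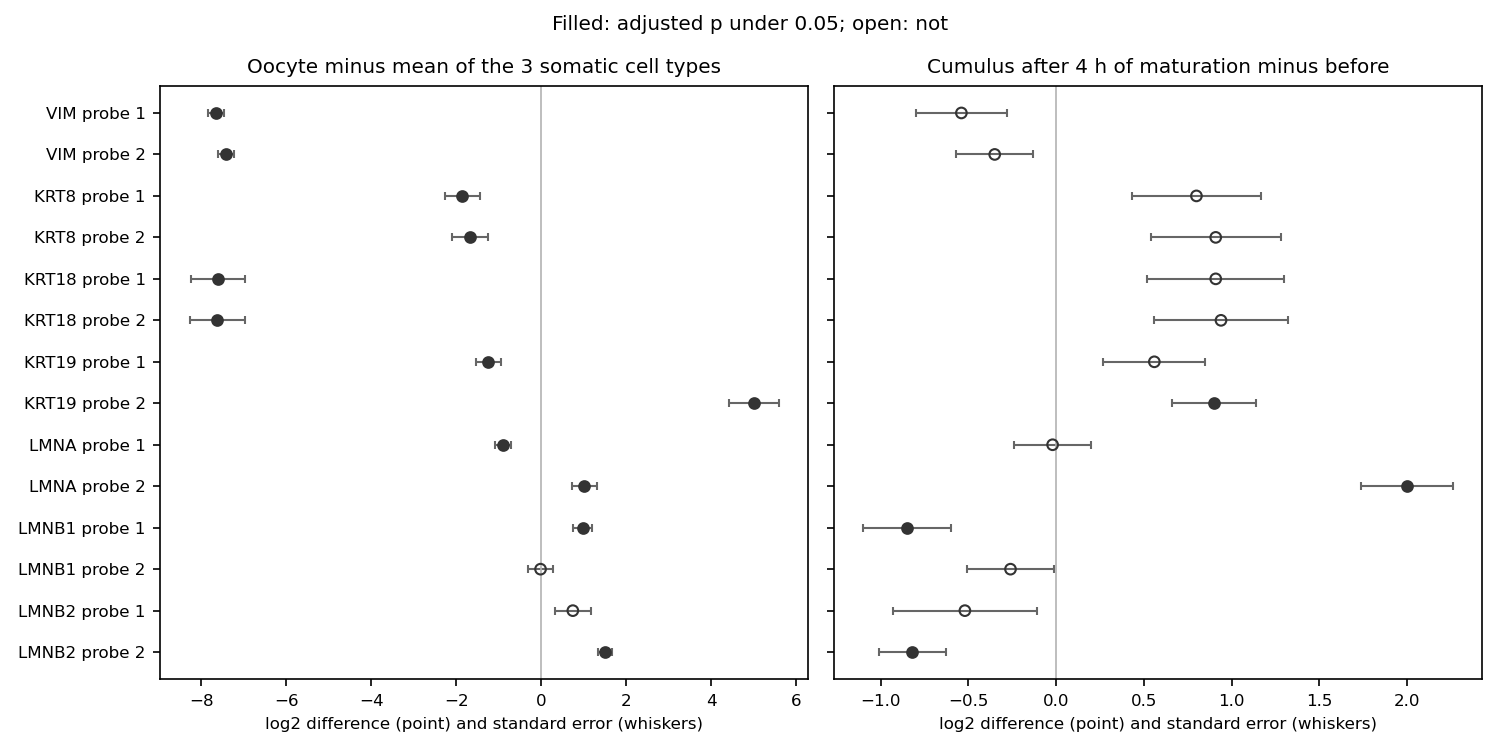
Log2 differences with SE (x axes) of the 14 probe sequences (y axis) for OO against the somatic mean and for CC IVM against CC, filled where the adjusted p was under 0.05. In OO the KRT19 probes lie on opposite sides of 0, with probe 2 not above background on 11 of 12 somatic arrays so that its place is no size, and the LMNA probes lie at -0.91 and 1.01, and after maturation LMNA probe 2 lies at 2.00 beside probe 1 at -0.02.

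After 4 h of maturation, CC IVM differed from CC in LMNA and KRT19, which rose, and LMNB1, which fell, with VIM, KRT8, KRT18, and LMNB2 not past the threshold. These 3 of 7 stand beside 45.8% of all genes (30.3% higher and 15.5% lower). Of the 14 probe sequences 4 were called, 2 in each direction, beside 45.8% of all probe sequences. All CC IVM arrays were on a slide of their own, so maturation and slide cannot be told apart. With the slide as a random block all 7 genes were called, together with 67.9% of all genes, at an estimated correlation within slides of -0.26. Since no slide held both groups, that block cannot adjust for slide, and nothing is drawn from its calls. The median difference was 0.37 over all genes and 0.05 over 11891 genes that were above background throughout the 8 arrays, and the lowest signal called above background was -5.12 to -4.59 on CC IVM arrays against -5.73 to -5.26 on CC arrays.

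LMNA was at 0.37, 1.03, 0.61, and 0.57 in CC IVM, above every CC array, and the difference was 0.96 (SE 0.20, adjusted p = 0.0053). It came from probe 2, which was at 1.05, 1.69, 1.09, and 1.10 after maturation against -1.28 to -0.36 before it, a rise of 2.00 (SE 0.26, adjusted p = 0.00064) or 3.99-fold. Probe 1 was at -0.32, 0.38, 0.22, and 0.06 after maturation, overlapping with the CC arrays (difference -0.02, SE 0.22, adjusted p = 0.96). The gap between both probes differed by 2.01 (exact permutation test, two-sided, p = 0.029, the smallest that 4 against 4 arrays allow; adjusted p = 0.057 over 8 tests). Leukocyte markers had a summed level of -0.45 to 0.92 in CC IVM and -2.99 to -1.28 in CC, with 2 or 3 of 4 above background and PTPRC above it on no array of either group, and their part was not tested.

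For KRT19 the call (0.73, SE 0.18, adjusted p = 0.012) was not shared by probe 1, the probe above background, at 5.01, 4.28, 3.85, and 4.15 after maturation (0.56, SE 0.29, adjusted p = 0.14), and probe 2 was not above background on any of the 8 arrays. It was lost after quantile normalization (0.31, adjusted p = 0.24) and with the deposited values (0.29, adjusted p = 0.10). LMNB1 fell by 0.56 (SE 0.20, adjusted p = 0.047), with CC IVM at -4.52, -5.09, -4.67, and -5.15 and above background on replicate 3 only. The fall was lost without any 1 of the CC arrays or without CC IVM replicate 2 or 4 (adjusted p = 0.081 to 0.11), and it turned to 0.35 after normexp (adjusted p = 0.011). The fixed offset of normexp met a 75th percentile of 284.5 to 395.9 on CC IVM arrays and 536.3 to 657.3 on CC arrays. Its part in this turn was not tested.

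KRT8 was at 4.66, 4.82, 5.12, and 3.45 in CC IVM and KRT18 at 5.21, 4.38, 4.74, and 3.59. In both, replicate 4 lay among the CC arrays and the other 3 above them. Differences were 0.85 (SE 0.36, adjusted p = 0.077) and 0.93 (SE 0.37, adjusted p = 0.065), and without replicate 4 they were 1.21 (adjusted p = 0.0098) and 1.22 (adjusted p = 0.024). VIM differed by -0.44 (SE 0.23, adjusted p = 0.13), and by -0.94 both after quantile normalization (adjusted p = 0.011) and with the deposited values (adjusted p = 0.0034). LMNB2 was at -1.53, -2.16, -1.24, and -2.03, a difference of -0.67 (SE 0.27, adjusted p = 0.069), while its probe 2 fell by 0.82 (SE 0.19, adjusted p = 0.013), with 0.24 to 0.73 after maturation and no overlap with CC. Oocyte markers, too, were lower in CC IVM (summed level -2.64 to -0.84) than in CC (-0.83 to 1.59), and their part in the LMNB2 values was not tested.

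Other genes of these structures were followed in 4 lists. Of 29 other intermediate filament genes 27 were on the array, and in OO 7 were higher and 11 lower than the somatic mean, with a median difference of -0.59, close to the 32.9% higher, 38.3% lower, and median of -0.52 over all genes. Neuronal filament genes led the rises: the light neurofilament chain NEFL was at 4.82 ± 0.22 (SD, n = 4) in OO and at least 923-fold higher than in GC, and INA, alpha-internexin, was at 0.23 and at least 45.7-fold higher than in TH and 49.8-fold higher than in CC. KRT5, a keratin of basal epithelial cells, was higher in OO by 5.01 (SE 0.44, adjusted p = 4e-08). Its size is limited by signal near background in TH (-6.96, above background on 1 array), GC (-6.61, 3 arrays), and CC (-5.70, 4 arrays). The largest falls were in KRT10 (-3.21), a keratin of differentiated epidermis, the muscle filament gene DES (-3.08), and KRT1 (-2.78). KRT1 was near background in TH (-6.92, above it on 1 array) and OO (-7.32, 2 arrays). Its fall thus came from GC (-4.08) and CC (-2.64).

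Among linkers that tie filaments to junctions and to other filaments, 20 of 21 were on the array, 7 higher and 4 lower in OO (median -0.59), beside the same shares and median over all genes. Desmoplakin, DSP, which anchors keratin to desmosomes, was at -0.32 in OO and at least 26.3-fold higher than in GC and 34.2-fold higher than in CC. PPL, not above background on any TH, GC, or CC array, was at least 2.37-, 1.99-, and 2.59-fold higher in OO than in these, and FBF1 rose by 1.92 (SE 0.16). Plakoglobin, JUP, fell by 6.06 (SE 0.15, adjusted p = 1.4e-14), DST fell by 4.46 (SE 0.26), and the desmosomal cadherin DSC2, at -1.14 in TH, was not above background on any OO array, at least 27.2-fold lower than in TH (42.0-fold without OO replicate 2).

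Of the partners of lamins at the nuclear envelope, 16 of 17 were on the array, and OO had 5 higher and 6 lower (median 0.10), again near the shares over all genes. LEMD3 (2.88, SE 0.13), SUN1 (2.70, SE 0.34), and TMPO (2.09, SE 0.14) rose, while LEMD2 (-4.30, SE 0.20), SYNE1 (-4.30, SE 0.31), and LBR, the lamin B receptor (-2.17, SE 0.16), fell. Enzymes that farnesylate, methylate, and cleave lamin tails numbered 5, and 4 were higher in OO, beside 32.9% of all genes. Their median was 1.17, beside -0.52 over all genes and 0.19 over those above background throughout. The rises were in ICMT by 2.71 (SE 0.26), RCE1 by 1.74 (SE 0.18), ZMPSTE24, the protease that matures prelamin A, by 1.17 (SE 0.12), and FNTA by 0.52. FNTB gave -0.04 (SE 0.19, adjusted p = 0.84).

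After maturation, other intermediate filament genes had 8 higher and 3 lower (median 0.47) and linkers 10 higher and 4 lower (median 0.67). Over all genes 30.3% were higher and 15.5% lower, with a median of 0.37. Between CC and CC IVM the floor moved as given above. Of those higher, 7 of the 8 and 9 of the 10 were above background on fewer than 3 arrays in each of both groups. The exceptions were KRT6A, from -5.29 to -1.91 (3.38, SE 0.44, adjusted p = 0.00034), and the desmosomal cadherin DSG2 (1.57, SE 0.34, adjusted p = 0.0062), both above background on all 8 arrays. A gene counted as above background where at least 1 of its spots was. In CC, KRT6A lay at the floor of those arrays (-5.73 to -5.26) and DSG2, at -5.00, close to it, so the size of these rises is limited. Others of the largest differences were in KRT20, PRPH, EVPL, and PKP3, all among those dim genes. Falls were largest in GFAP, which was not above background on any CC IVM array and at least 1.52-fold lower there, NES (-2.00), and BFSP1 (-1.11), and among linkers in PKP2 (-3.20, SE 0.33, adjusted p = 9e-05), JUP (-1.30), and TCHP (-1.18).

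Of the 16 nuclear envelope genes 3 were higher, TOR1AIP2 (1.74, SE 0.26), TOR1AIP1 (1.59, SE 0.31), and emerin, EMD (1.07, SE 0.18), and 4 lower, with SYNE2 (-1.71), LEMD2 (-1.54), and TMPO (-1.42) the largest and a median of 0. These counts stand beside 30.3% of all genes higher and 15.5% lower. Of the 5 enzymes only FNTB, the farnesyltransferase subunit, was called, where 45.8% of all genes were. It fell by 2.07 on the log2 scale (SE 0.23, adjusted p = 0.00013).

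**Figure D4:**
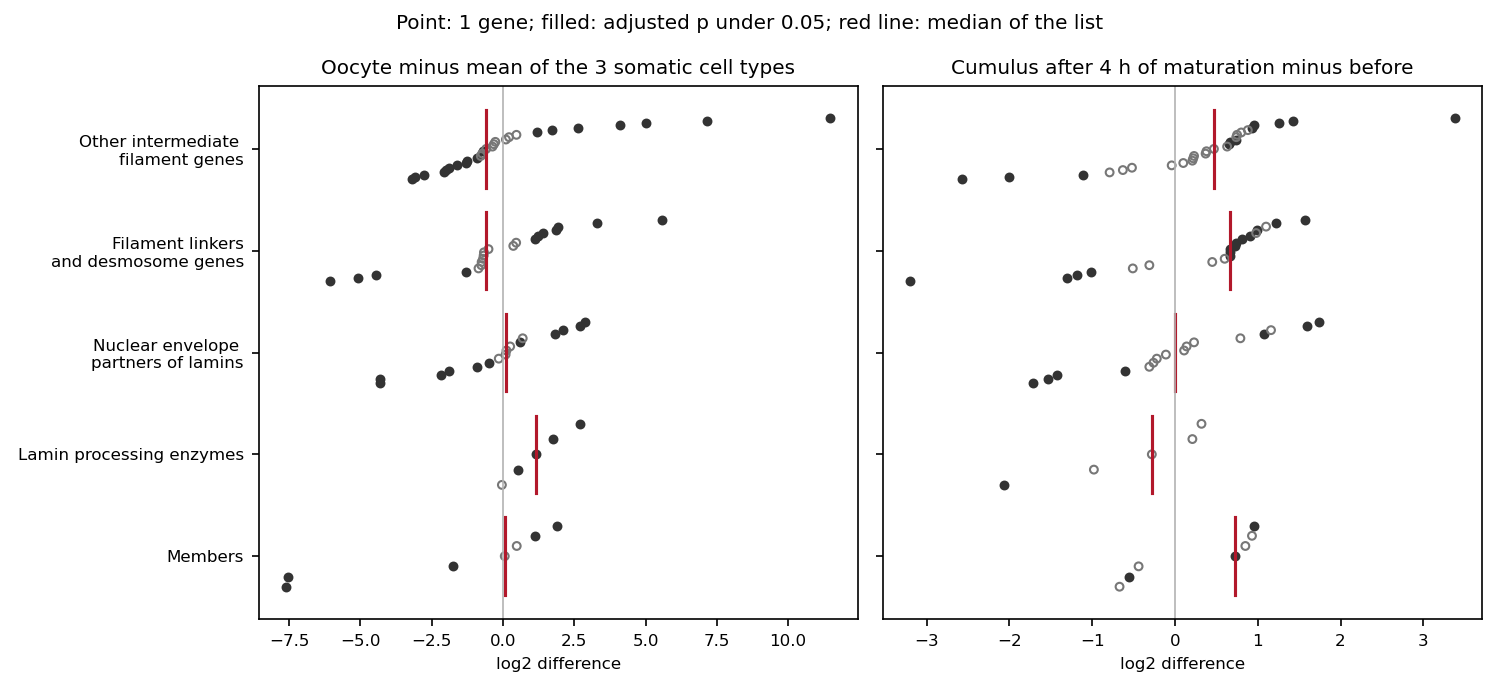
Log2 differences (x axes) of the genes on the array in the 4 lists and of the 7 members (y axis), for OO against the somatic mean and for CC IVM against CC. Each point is 1 gene, filled where the adjusted p was under 0.05, and the red line is the median. In OO all 4 called enzymes lie to the right, and after maturation the dim linkers cluster near their median of 0.67.

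Over the 20 arrays, and among 9531 genes above background on all of them, the genes with the pattern most like each member were TRIM38, GSTA1, and WBP1 for VIM (Pearson r 0.992 to 0.995), P33MONOX, the unnamed transcript ENSBTAT00000064490, and ANKRD1 for KRT8 (0.875 to 0.881), and IVNS1ABP, NME1, and SMAD4 for KRT18 (0.952 to 0.953). For KRT19 they were UBTD2, CKB, and RAP1A (0.922 to 0.933), for LMNA BAG5, LEPROTL1, and MGC139254 (0.86 to 0.90), for LMNB1 RRM1 and 2 unnamed transcripts (0.83 to 0.85), and for LMNB2 TSFM, CEP72, and TMEM63B (0.91 to 0.916). The correlation between KRT8 and KRT18 was 0.73 and that between VIM and KRT18 0.90. These values describe arrays that share group, slide, and scaling.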

How the data were processed

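The authors deposited the Feature Extraction output of each array (version 10.7.3.1 per the labels' processing notes), with a background-subtracted intensity per spot that was not scaled between arrays, and with flags (other values of 0 or 1) for signal above background and outliers. They also deposited a table of log2 values, which equalled log2 of the median spot signal minus the array median within 5e-09. Control and outlier spots were left out. Log2 of the processed intensity was taken minus the 75th percentile of each array, and a gene was given the median of its spots, after the study's methods. Of 61325 probes, 9779 had no gene name, and 734 of these were matched by accession to RefSeq. The cell types (16 arrays) and CC IVM with CC (8 arrays) were fitted separately with lmFit and eBayes of limma 3.58.1 (R 4.3.3, and 1.17.8 of the package data.table), with Benjamini–Hochberg adjustment over all genes or all probe sequences. Figures were drawn in Python 3.11.15 with matplotlib 3.10.9, pandas 2.3.3, and numpy 2.4.6. The fits were tested on simulated data.

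All 7 members and the lists of genes and markers were chosen with earlier results of these data known. Fits by probe, the gap between probes, and limits without single arrays were added after the values were seen. Named genes were the members, the 3 largest rises and falls called in each list, the 3 genes best correlated with each member, and markers. CDH1, KRT13, NEFM, EPPK1, and SUN2 were not found by name on the array. The number of 4 arrays per group limits the precision. Deviations of same-numbered arrays from their group means correlated at 0.12 to 0.34 between TH and GC, which also share slides. They were positive throughout for GC with CC (0.02 to 0.22) and GC with OO (0.01 to 0.08) as well. The labels do not say that a number marks a shared animal or day. The main fits therefore left the number out, and it entered only as the replicate block among the alternatives.

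The alternatives were quantile normalization, the array median, the percentile over detected probes, normexp (offset 50), the deposited table, the mean or brightest probe, blocks for the replicate number or the slide, a filter on dim genes, 1 fit of all 20 arrays, each slide alone, array weights, a trended robust variance, analysis of variance per gene, and leaving out each array.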

Additional observations from a re-analysis of the deposited data

Results flagged for a closer look

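In groups of 4 arrays, 1 array stood apart from the other 3 (its gap to the nearest one, over the group's range, was past Dixon's critical value) in 6 of 105 groups of gene or probe values, where chance gives about 1 in 20. TH replicate 4 was at -1.71 in the gene value of LMNB2, with the others at -2.53 to -2.40. KRT19 probe 2 was at 0.36 on OO replicate 1, with the others at -2.72 to -2.36, and at -5.80 on CC IVM replicate 3, not above background, with the others at -6.73 to -6.63. LMNA probe 2 was at 1.69 on CC IVM replicate 2, with the others at 1.05 to 1.10. LMNB2 probe 1 was at -2.51 on CC replicate 2, with the others at -3.87 to -3.72, and LMNB2 probe 2 was at 1.81 on OO replicate 1, with the others at 2.14 to 2.16. Without OO replicate 1, the gap between the probes of LMNB2 differed between OO and the somatic arrays by 1.34 (exact permutation test, two-sided, adjusted p = 0.012), against 0.76 with it (adjusted p = 0.20).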

How the results depend on the processing

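Of 1897 gene results under the alternatives, 1757 kept their direction and side of the threshold, 57 lost a call, 61 gained one, 10 turned direction with a call on either side, and 12 changed sign without one. VIM, KRT8, KRT18, and LMNB2 kept their call in OO under all 15 other settings and without any array. After normexp, LMNB1 turned to -0.46 in OO, with -0.34 against TH, -0.67 against GC, and -0.38 against CC, KRT19 to -0.02 against TH, and LMNB1 to 0.35 after maturation, with its probes at 0.18 and 0.53. With the brightest probe, KRT19 turned to -1.25 in OO, with -1.58, -1.52, and -0.66 against TH, GC, and CC. The number of members called after maturation went from 3 to 6 with normexp, 1 with all 20 arrays in 1 fit, and 7 with the slide as a random block. That block cannot adjust for slide, since no slide held both CC and CC IVM. For GC against CC the number called went from 1 to 2 with the brightest probe or array weights and to 0 within slide 1 and within slide 2, and for TH against CC from 5 to 2 within slide 1 and 3 within slide 2. Leaving out single arrays gave 3 to 6 for TH against CC (3 without TH replicate 4) and 0 to 1 for GC against CC (0 without CC replicate 1 or 2). The replicate block changed no call between TH and GC, which stayed at 3 members. With the block, TH against CC called KRT18 no longer (adjusted p = 0.081) but called VIM (adjusted p = 0.03). Signal near background limits LMNB1, KRT19 probe 2, and the dim genes of the lists. The cause of these changes was not tested.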
